A study of Rattus norvegicus with 5 samples.

Results

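A set of 10 genes that mark groups within midbrain dopamine neurons were followed in single-nucleus RNA sequencing (snRNA-seq) of the rat ventral tegmental area (VTA). They were *Aldh1a1*, *Calb1*, *Satb1*, *Sv2c*, *Npsr1*, *Ebf3*, *Wnt2*, *Slc26a7*, *Shroom3* and *Col24a1*, 10 of the 32883 genes counted. The genes were chosen by their measured levels, which differed among dopamine neurons of these same libraries, so their levels and overlaps are given as a description, without a test. The data were 5 libraries of adult male Sprague-Dawley rats, 1 library per rat, each made from the pooled punches of both sides of the VTA of a fresh frozen brain. The sample labels give the treatment of all 5 as saline, whereas a figure legend of the study calls them drug-naïve, and no other condition was measured, so that conditions could not be compared. Values are counts of unique molecular identifiers (UMIs), which mark single captured transcripts, and a level is the number of UMIs of a gene per 10000 UMIs of all genes, summed over the nuclei of a rat.

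Nuclei were barcodes with at least 1000 UMIs, over 200 and under 5000 genes and under 5% of UMIs from mitochondrial genes, which left 22084 of 5 libraries (1813 in rat 1, 9336 in rat 2, 2284 in rat 3, 4823 in rat 4 and 3828 in rat 5). Among them, 3416 held at least 3 of the 4 transcripts *Th*, *Slc6a3*, *Slc18a2* and *Ddc*, and these are called dopamine-gene nuclei here. Libraries held 10193355 to 88576210 UMIs, and the median nucleus held 1605.5 to 3526 UMIs, lowest in rat 3. The mitochondrial limit removed 3121 and 3514 barcodes in rats 1 and 2, and 18 to 411 in the other rats. Nuclei of different libraries shared 50 barcodes.

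Dopamine neurons of the ventral midbrain make dopamine from tyrosine with tyrosine hydroxylase (*Th*) and aromatic amino acid decarboxylase (*Ddc*), load it into vesicles with the vesicular monoamine transporter (*Slc18a2*) and take it back up with the dopamine transporter (*Slc6a3*). They are not uniform: cells of the ventral tier of the substantia nigra are known for *Aldh1a1* and *Sox6*, and cells of the dorsal tier and of much of the VTA for the calcium-binding protein calbindin. *Aldh1a1* encodes a retinaldehyde dehydrogenase that also clears the aldehyde made from dopamine, and *Calb1* encodes calbindin. *Satb1* and *Ebf3* encode DNA-binding proteins, *Sv2c* a glycoprotein of synaptic vesicles, *Npsr1* the receptor of neuropeptide S, and *Wnt2* a secreted Wnt ligand. *Slc26a7* encodes an anion transporter, *Shroom3* an actin-binding protein that shapes cells, and *Col24a1* a fibrillar collagen.

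The promoters of 3 members are shown because the patterns below turn on these genes: *Aldh1a1*, which with *Calb1* defined the groups compared, and *Ebf3* and *Wnt2*, which were found in the same nuclei more often than their separate frequencies give. Each runs from 250 bases before to 50 bases after the start of the gene in RefSeq (build GRCr8), 5′ to 3′ on the strand of the gene, and capitals mark a CCAAT box (CCAAT or, on the other strand, ATTGG) or an octamer (ATGCAAAT).
*Aldh1a1*, chr1:227537370-227537669, plus strand: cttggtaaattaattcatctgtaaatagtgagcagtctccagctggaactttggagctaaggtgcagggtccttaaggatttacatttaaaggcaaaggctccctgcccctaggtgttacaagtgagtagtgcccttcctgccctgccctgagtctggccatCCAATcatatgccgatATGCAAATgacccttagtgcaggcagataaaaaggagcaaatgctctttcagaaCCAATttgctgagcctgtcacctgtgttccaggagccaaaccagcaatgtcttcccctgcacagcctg
*Ebf3*, chr1:201544256-201544555, minus strand: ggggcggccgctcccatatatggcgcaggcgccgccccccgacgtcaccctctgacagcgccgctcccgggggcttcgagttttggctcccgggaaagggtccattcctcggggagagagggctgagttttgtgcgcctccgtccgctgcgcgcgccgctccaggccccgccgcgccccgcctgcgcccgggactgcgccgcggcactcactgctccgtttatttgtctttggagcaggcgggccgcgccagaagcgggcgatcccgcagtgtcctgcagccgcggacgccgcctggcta
*Wnt2*, chr4:47340235-47340534, minus strand: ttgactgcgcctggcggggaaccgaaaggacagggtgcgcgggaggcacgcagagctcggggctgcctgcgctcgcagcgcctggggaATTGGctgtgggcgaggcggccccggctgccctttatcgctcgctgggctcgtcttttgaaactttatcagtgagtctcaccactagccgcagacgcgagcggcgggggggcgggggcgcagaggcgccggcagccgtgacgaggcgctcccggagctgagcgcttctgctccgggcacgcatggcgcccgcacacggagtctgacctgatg
The window of *Aldh1a1* held 2 CCAAT boxes, which began 88 and 18 bases before the start, and 1 octamer, which began 72 bases before it. That of *Wnt2* held 1 CCAAT box, 162 bases before the start, and that of *Ebf3* held none of the letters searched. A CCAAT box was in 37.5% and an octamer in 1.78% of the 33469 promoters of the same length. Also searched on both strands were TATAAA, the 10-base palindrome of EBF proteins, AAAGGTCA, TAATTA and TGTTTAC, found in 14.2%, 0.834%, 1.43%, 5.36% and 3.78% of promoters and in no member. Of the 10 members, 8 had a promoter in the table, all but *Calb1* and *Slc26a7*, and of these only *Aldh1a1*, *Wnt2* and *Npsr1* held a searched motif.

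The dopamine-gene nuclei were not all neurons by their other transcripts. When all nuclei were clustered without the 10 members, 1392 of the 3416 (40.7%) lay in neuron-like clusters, 1121 (32.8%) in clusters left unnamed, 507 (14.8%) in oligodendrocyte-like clusters and 156 (4.57%) in astrocyte-like clusters. Microglia-like, vascular-like and oligodendrocyte precursor cell (OPC)-like clusters held 89, 80 and 71. The split differed between rats: neuron-like clusters held 24 of 291 dopamine-gene nuclei in rat 1, 652 of 2211 in rat 2, 209 of 212 in rat 3, 246 of 304 in rat 4 and 261 of 398 in rat 5. Neuron-like clusters also took in 1763 other nuclei of rat 3, which had 2284 nuclei in all. In rats 1, 2, 4 and 5 they took in 97, 1288, 670 and 633 others, of 1813, 9336, 4823 and 3828 nuclei. The high share in rat 3 was thus not particular to its dopamine-gene nuclei. The nuclei in unnamed clusters held a median of 1573 UMIs, against 7745.5 in neuron-like clusters.

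**Figure D1:**
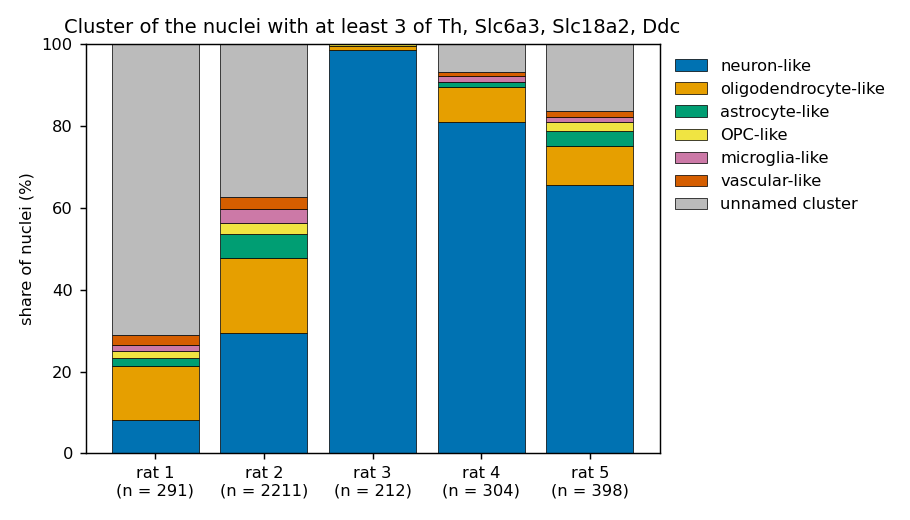
Share (%) of the dopamine-gene nuclei of each rat (at least 3 of *Th*, *Slc6a3*, *Slc18a2* and *Ddc*) in each type of cluster, as stacked bars, with the number of nuclei under each bar. In rats 1 and 2 most lay outside neuron-like clusters (24 of 291 and 652 of 2211 inside), and in rat 3 nearly all lay inside (209 of 212). Neuron-like clusters also held 1763 other nuclei of rat 3, of its 2284 nuclei in all.

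Markers that the rule did not use were compared with the label of dopamine neurons. *Pitx3*, a transcription factor of midbrain dopamine neurons, stood at 0.359 ± 0.0521 UMIs per 10000 (SD, n = 5 rats) in dopamine-gene nuclei of neuron-like clusters, called dopamine-gene neurons here, at 0.108 ± 0.0415 (n = 4) in those outside and at 0.0313 ± 0.0114 in the remaining 4451 neurons. *Lmx1b*, another such factor, stood at 1.43 ± 0.340, 0.261 ± 0.164 and 0.373 ± 0.168 in the same order. *Nr4a2* stood at 0.673 ± 0.0691, 0.653 ± 0.106 and 0.218 ± 0.0711. The myelin gene *Mog* stood at 1.15 ± 0.141 in dopamine-gene neurons and at 8.76 ± 2.08 in dopamine-gene nuclei outside. Barcodes with under 100 UMIs, which hold mostly free RNA, carried *Th* at 6.73 ± 2.23 and *Slc6a3* at 5.71 ± 1.36 UMIs per 10000, against 4.80 ± 1.04 and 5.58 ± 0.837 in dopamine-gene neurons. The free RNA was thus as rich in these 2 transcripts as the neurons were. It held less of the other 2 genes of the rule. *Slc18a2* stood at 1.15 ± 0.518 in free RNA against 2.81 ± 0.389 in dopamine-gene neurons, and *Ddc* at 3.61 ± 0.765 against 10.5 ± 2.59. The part of free RNA in the calls of dopamine-gene nuclei was not tested. *Pitx3* and *Lmx1b* were thus higher inside neuron-like clusters, whereas *Nr4a2* differed by less than its spread and *En1* was higher outside (0.527 ± 0.183, n = 4) than inside (0.290 ± 0.0946), and *Foxa1* was near 0 (0.0343 ± 0.0299 inside). Results are therefore given for dopamine-gene neurons as well as for all dopamine-gene nuclei. Rat 3 stood apart: its neurons formed sub-clusters of their own, led in part by genes without a name. Its other neurons held the astrocyte marker *Gja1* at 2.57 UMIs per 10000, against 0.0637 to 0.396 in the other rats. Its free RNA held *Gja1* at 28.3, against 0.847 to 1.77. The part of astrocyte RNA in the levels of rat 3 was not tested. It held only 3 dopamine-gene nuclei outside neuron-like clusters, so values for that group are over 4 rats.

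*Aldh1a1*, the aldehyde dehydrogenase, stood in rats 1 to 5 at 1.77, 2.58, 1.49, 1.77 and 2.89 UMIs per 10000 in all dopamine-gene nuclei. In dopamine-gene neurons it stood at 0.615, 1.80, 1.5, 1.86 and 2.88, lowest in rat 1, where 24 nuclei gave the value. Other neurons held 0.128, 0.397, 0.376, 0.159 and 0.206, below the dopamine-gene neurons in every rat, with a ratio of means of 6.84. In barcodes with under 100 UMIs the level was 2.59, 3.51, 1.78, 1.26 and 2.25, so that dopamine-gene neurons were above free RNA in 2 of 5 rats (ratio of means 0.760). Astrocyte-like nuclei came next after dopamine-gene neurons, at 1.12 ± 0.201 (n = 4 rats with at least 20 nuclei), and OPC-like nuclei (0.365 ± 0.262), oligodendrocyte-like nuclei (0.328 ± 0.303) and other neurons (0.253 ± 0.125) did not differ beyond their spread. In dopamine-gene nuclei outside neuron-like clusters the level was 2.03, 3.46, 0.855 and 2.94 in rats 1, 2, 4 and 5, above that of the dopamine-gene neurons of the same rat in 3 of 4.

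*Calb1*, calbindin, varied little between rats. Its level in dopamine-gene neurons was 0.738, 0.686, 0.886, 0.645 and 0.753 UMIs per 10000, and in all dopamine-gene nuclei 0.868, 0.745, 0.880, 0.624 and 0.749. Other neurons held 0.175, 0.208, 0.25, 0.204 and 0.261, lower in every rat without overlap (ratio of means 3.38). Free RNA held 0.754, 0.810, 0.855, 0.619 and 0.751, so that no difference from dopamine-gene neurons stood out from the spread between rats (ratio of means 0.979). Oligodendrocyte-like (0.156 ± 0.0822), astrocyte-like (0.171 ± 0.130) and OPC-like nuclei (0.115 ± 0.115) lay within the spread of one another.

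Of the transcription factors, *Satb1* was set apart by rat 3. In dopamine-gene neurons it stood at 0.574, 1.12, 7.25, 1.09 and 1.11 UMIs per 10000, and in other neurons at 0.606, 0.404, 2.70, 0.675 and 0.357. Rat 3 was highest in both, and also in free RNA (1.26, against 0.244 to 0.402 in the other rats) and in OPC-like nuclei (3.30, against 0.840 to 1.06). Dopamine-gene neurons were above other neurons in 4 of 5 rats, and rat 1 was the exception. OPC-like nuclei, at 1.42 ± 1.05, and astrocyte-like nuclei, at 0.970 ± 0.215 (n = 4), lay within the spread of the dopamine-gene neurons (2.23 ± 2.82).

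*Ebf3*, a factor of the early B-cell factor family, stood at 5.41, 1.97, 0.919, 3.56 and 2.39 UMIs per 10000 in dopamine-gene neurons. Other neurons held 1.49, 0.723, 0.570, 1.50 and 0.963, lower in every rat, with a ratio of means of 2.72. Among the other neurons, those with *Slc17a6*, the vesicular glutamate transporter of the midbrain, held 2.17, 1.52, 0.934, 2.48 and 2.59, above dopamine-gene neurons of the same rat in rats 3 and 5. Neurons with genes of GABA synthesis or transport held 0.337 ± 0.0637, below the *Slc17a6* neurons (1.94 ± 0.699) in every rat. Glia-like nuclei held little: 0.156 ± 0.0573 in astrocyte-like (n = 4) and 0.0876 ± 0.0323 in oligodendrocyte-like nuclei.

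*Sv2c*, the vesicle protein, was detected in 71.7% ± 11.7 of dopamine-gene neurons (SD, n = 5 rats). Its level there was 4.35, 6.84, 12.4, 7.22 and 7.18 UMIs per 10000, against 1.57, 1.29, 3.13, 1.46 and 1.03 in other neurons and 0.740, 0.738, 0.640, 1.01 and 0.760 in free RNA. Dopamine-gene neurons were above both in every rat, by ratios of means of 4.48 and 9.77. The level in dopamine-gene nuclei outside neuron-like clusters was 1.1, 1.12, 2.33 and 1.04 in rats 1, 2, 4 and 5, lower than in the neurons in all 4. Astrocyte-like nuclei (1.62 ± 0.810, n = 4) and other neurons (1.70 ± 0.827) did not differ beyond their spread, and OPC-like and oligodendrocyte-like nuclei held 0.110 ± 0.0312 and 0.0990 ± 0.0404.

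*Npsr1*, the neuropeptide S receptor, stood at 2.01, 0.462, 0.535, 1.28 and 0.518 UMIs per 10000 in dopamine-gene neurons and at 0.105, 0.0748, 0.126, 0.342 and 0.210 in other neurons. The groups did not overlap, and the ratio of means was 5.60. Within a rat the ratio was 19.1 in rat 1 and 2.47 to 6.18 in rats 2 to 5. Rat 4 was the highest of the 5 rats in other neurons and in free RNA (0.195, against 0.0388 to 0.0856). *Wnt2*, the ligand, stood at 2.01, 0.545, 1.1, 0.747 and 0.713 in dopamine-gene neurons and at 0.280, 0.0558, 0.288, 0.143 and 0.0836 in other neurons, again without overlap (ratio of means 6.01). Neither gene was above 0.05 per 10000 on average in oligodendrocyte-like, OPC-like, astrocyte-like or microglia-like nuclei.

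*Slc26a7*, the anion transporter, stood at 3.28, 0.484, 0.317, 0.787 and 0.598 UMIs per 10000 in dopamine-gene neurons and at 0.163, 0.107, 0.229, 0.197 and 0.131 in other neurons. *Shroom3* stood at 1.44, 1.49, 2.27, 1.55 and 1.40 in dopamine-gene neurons and at 0.338, 0.102, 0.417, 0.269 and 0.177 in other neurons. *Col24a1*, the collagen, stood at 0.410, 1.03, 0.702, 1.74 and 1.89 and at 0.186, 0.107, 0.255, 0.365 and 0.198. All 3 genes were without overlap between these groups, with ratios of means of 6.61, 6.25 and 5.20. The ratio of *Slc26a7* was 20.1 in rat 1 and 1.38 to 4.56 in rats 2 to 5. The share of all genes without overlap between these groups was not computed. For these and the members above, lack of overlap is therefore a description of genes chosen by their levels. The level of *Slc26a7* in rat 1 rested on the 24 dopamine-gene neurons of that rat. Astrocyte-like nuclei held *Shroom3* at 0.278 ± 0.0941 (n = 4), within the spread of other neurons (0.261 ± 0.125), and the other glia-like nuclei held less than 0.05 on average except microglia-like nuclei (0.0797 ± 0.0726).

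**Figure D2:**
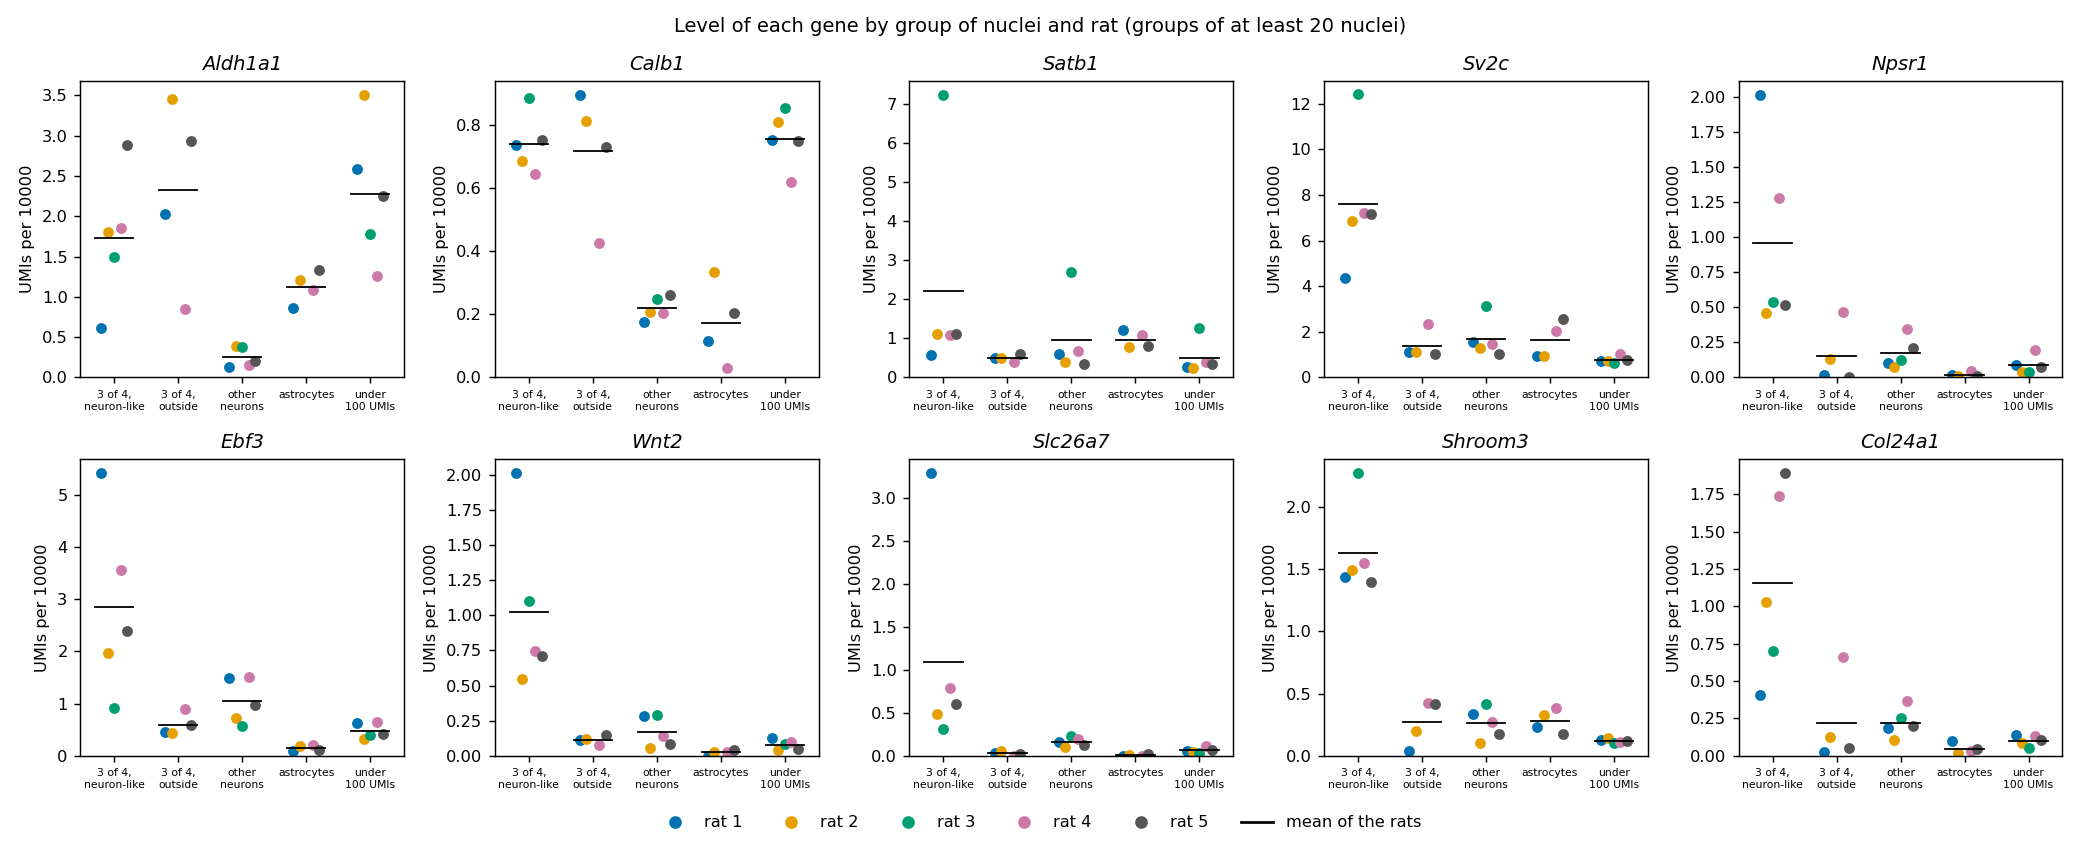
Level of each member (UMIs per 10000 UMIs) in 5 groups of barcodes: dopamine-gene nuclei in and outside neuron-like clusters, other neurons, astrocyte-like nuclei and barcodes with under 100 UMIs. Each dot is a rat with at least 20 nuclei in the group and the line is the mean over rats. *Aldh1a1* and *Calb1* in dopamine-gene neurons lie among the values of barcodes under 100 UMIs (ratios of means 0.760 and 0.979), and the other 8 members lie above them in every rat.

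Free RNA was set beside every member in the same way. In dopamine-gene neurons *Satb1*, *Sv2c*, *Npsr1*, *Ebf3*, *Wnt2*, *Slc26a7*, *Shroom3* and *Col24a1* were above the barcodes with under 100 UMIs in 5 of 5 rats, with ratios of means of 4.41, 9.77, 11.1, 5.91, 13.0, 17.5, 13.5 and 11.3. The ratio of *Slc26a7* was 56.4 in rat 1 and 7.22 to 10.9 in rats 2 to 5. That of *Npsr1* was 23.5 in rat 1 and 6.56 to 13.7 in rats 2 to 5. The share of all genes above free RNA in every rat was not computed. *Aldh1a1* was above in 2 and *Calb1* in 3 of 5 rats. The part of free RNA in the detection of *Aldh1a1* and *Calb1* was not tested.

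A share of nuclei with a UMI depends on depth, so shares were also taken after each nucleus was thinned to 1000 UMIs, which left out none. Thinned, *Aldh1a1* was found in 14.3% of dopamine-gene neurons on average over rats and in 3.53% of oligodendrocyte-like nuclei, which should lack it, and unthinned in 36.1% ± 9.30 and 10.0% ± 8.32. *Calb1* was found in 6.28% and 1.63% thinned, and in 35.3% ± 13.0 and 5.05% ± 3.14 unthinned. Thinned shares in dopamine-gene neurons were 41.4% for *Sv2c*, 18.3% for *Ebf3*, 15.8% for *Satb1*, 12.7% for *Shroom3*, 8.73% for *Wnt2*, 7.92% for *Col24a1*, 6.62% for *Slc26a7* and 5.58% for *Npsr1*. In oligodendrocyte-like nuclei the same 8 genes were found in 0.0627% to 4.91% after thinning, the highest being *Satb1*. Every member was thus found in a larger share of dopamine-gene neurons than of oligodendrocyte-like nuclei at equal depth. These oligodendrocyte-like nuclei leave out those that were dopamine-gene nuclei. Some members came closer in other types. Thinned, *Aldh1a1* was found in 11.6% of astrocyte-like nuclei (n = 4 rats), *Satb1* in 13.0% of OPC-like nuclei and *Ebf3* in 13.6% of the *Slc17a6* neurons. In dopamine-gene nuclei outside neuron-like clusters (n = 4 rats), thinned shares were 18.4% for *Aldh1a1* and 9.06% for *Calb1*, above those in dopamine-gene neurons. The other 8 members were found there in 0.225% to 9.2%, each below its share in dopamine-gene neurons.

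The number of genes asked for moved the shares. In nuclei with all 4 dopamine genes *Aldh1a1* was found in 40.0% and in nuclei with at least 2 in 26.1%, against 34.3% ± 8.70 with at least 3. For *Sv2c* these shares were 68.9%, 35.5% and 53.4% ± 23.2, and for *Calb1* 35.3%, 16% and 25.3% ± 5.78. The same change moved depth: the median UMI total of the nuclei with *Aldh1a1* and without *Calb1*, averaged over rats, was 5969, 3931 and 4552 in that order, the first over 4 rats without rat 3, where the last was 5028.

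Within the neurons, clustered again without the members, 4 sub-clusters were dopaminergic-like by their markers and held 988 of the 1392 dopamine-gene neurons. The other 404 (29.0%) lay in sub-clusters with markers of GABA neurons (89) or without a name (315), among them 141 in sub-cluster 3 and 28 in sub-cluster 15, led in part by *Tph2* and *Slc6a4*, genes of serotonin neurons. Sub-clusters 2, 6 and 8 held 713, 311 and 234 nuclei in all, of which 660, 74 and 109 were dopamine-gene neurons. Levels are over all nuclei of a sub-cluster in each rat with at least 20, and the clusters were made from the other genes of the same nuclei, so they are a description. The largest, numbered 2 and led by *Tmem207*, *Fgf20* and *Ntf3*, held 660 dopamine-gene neurons. In rats 2, 4 and 5 it held *Sv2c* at 11.3, 11.3 and 9.49, *Aldh1a1* at 2.76, 2.45 and 3.61, *Shroom3* at 2.49, 2.18 and 1.85 and *Col24a1* at 1.63, 2.64 and 2.28 UMIs per 10000. These 4 genes were higher there in each of these rats than in sub-clusters 6 and 8. So was *Calb1*, at 0.883, 0.728 and 0.895 in sub-cluster 2. It stood at 0.354, 0.259 and 0.461 in sub-cluster 6 and at 0.683, 0.587 and 0.578 in sub-cluster 8.

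Sub-cluster 8, with 109 dopamine-gene neurons, held more of other members. In rats 2, 4 and 5 *Ebf3* stood at 7.24, 7.67 and 7.95, against 1.69, 2.22 and 1.88 in sub-cluster 2. *Slc26a7* stood at 3.52, 3.28 and 3.69, against 0.128, 0.190 and 0.114. *Wnt2* stood at 1.28, 1.70 and 1.90, against 0.695, 0.619 and 0.648. Its leading genes outside the list included *Baiap2l1*, *Reln*, which encodes the matrix protein reelin, *Diaph3* and *Crhbp*, which encodes the protein that binds corticotropin-releasing hormone. *Npsr1* differed more between rats, at 0.806, 4.43 and 1.78 in sub-cluster 8 against 0.639, 0.816 and 0.561 in sub-cluster 2. *Satb1* was lowest in sub-cluster 8, at 0.301, 0.287 and 0.217, and *Sv2c* stood at 2.34, 1.74 and 1.40.

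Sub-cluster 6, led by *Casr* (the calcium-sensing receptor), *Colec12* and *Adgrv1*, held 74 dopamine-gene neurons and few transcripts of most members. *Ebf3* stood there at 3.17, 2.65, 2.93 and 3.86 in rats 1, 2, 4 and 5, and *Satb1* at 1.77, 1.61, 1.66 and 1.09. *Sv2c* stood at 0.104, 0.720, 0.508 and 0.864, and *Npsr1* at 0 in 3 of the 4 rats and at 0.0399 in rat 4. Over the dopamine-gene neurons of each sub-cluster alone, all rats together, sub-clusters 2, 6 and 8 held *Sv2c* at 10.9, 1.15 and 1.79, *Aldh1a1* at 2.96, 0.410 and 0.558, *Ebf3* at 1.91, 3.74 and 8.64, and *Slc26a7* at 0.131, 0.110 and 5.28, in the same order as over all nuclei. Sub-cluster 7 was made of 322 nuclei of rat 3 alone, 145 of them dopamine-gene neurons, so that its *Satb1* (8.57) and *Sv2c* (14.8) cannot be told apart from the library of rat 3.

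**Figure D3:**
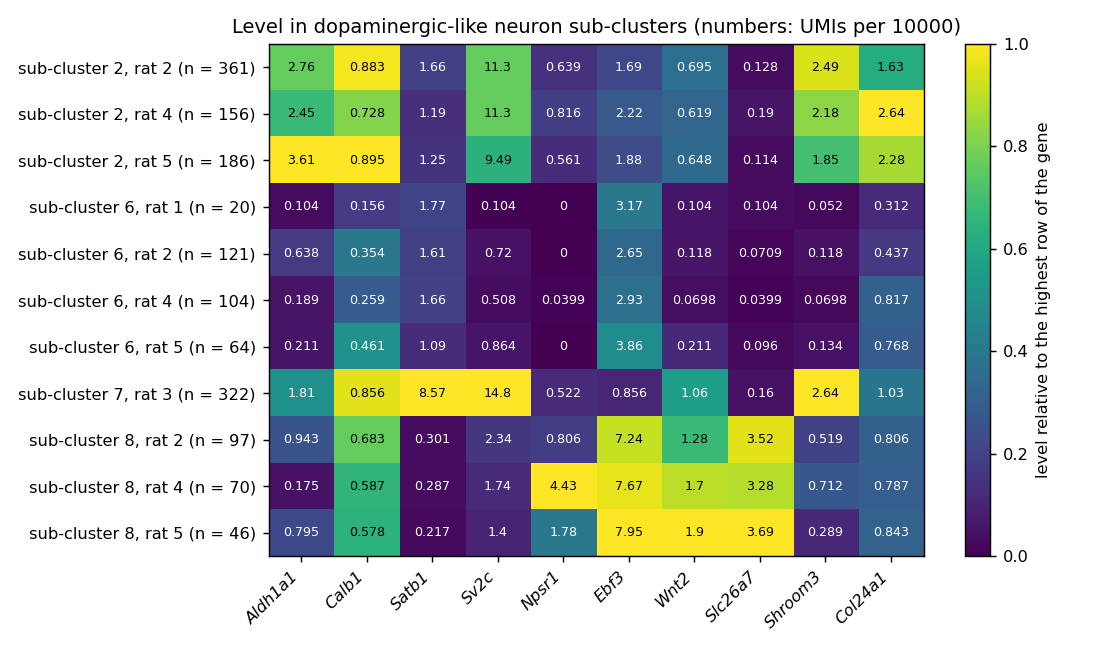
Level of each member (columns) in the dopaminergic-like sub-clusters of each rat with at least 20 nuclei (rows). Numbers are UMIs per 10000 and the shading is relative to the highest row of each gene. Sub-cluster 2 held most *Sv2c*, *Aldh1a1*, *Calb1*, *Shroom3* and *Col24a1* of rats 2, 4 and 5, and sub-cluster 8 most *Ebf3*, *Slc26a7* and *Wnt2*.

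The positive nuclei fell into the sub-clusters in unequal shares. Sub-cluster 8 held 7.83% of all dopamine-gene neurons and 82 of the 146 with *Slc26a7* (56.2%), 18.7% of those with *Wnt2*, 15.3% of those with *Ebf3* and 13.6% of those with *Npsr1*. It held 2.43% of the neurons with *Satb1* and 3.47% of those with *Sv2c*. Sub-cluster 2 held 47.4% of all, 64.9% of those with *Shroom3*, 60.3% of those with *Col24a1*, 59.7% of those with *Aldh1a1* and 56.8% of those with *Calb1*, but 21.2% of those with *Slc26a7*. Sub-cluster 8 held 5.76% of the neurons with *Aldh1a1* and 11.2% of those with *Calb1*.

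Most dopamine-gene neurons held several members at once. None of the 10 was found in 65 of the 1392 (4.67%), 1 in 137, 2 in 218, 3 in 255, 4 in 271, 5 in 210, 6 in 157, 7 in 64 and 8 in 15, and none held 9 or 10. The median UMI total was 6687 in those without a member and 13796 in those with 8. Over all dopamine-gene nuclei, 738 of 3416 (21.6%) held no member, with a median of 2238.5 UMIs.

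Because deeper nuclei show more of every gene, co-detection of a pair was set against the number expected if the genes were independent within 4 strata of the UMI total of each rat. In dopamine-gene neurons 38 of 45 pairs were found together more often than expected, with a median ratio of 1.1, and in all dopamine-gene nuclei 40 of 45, with a median of 1.17. Within the dopaminergic-like sub-clusters, 24 of 45 pairs were above 1, with a median of 1.02. Nuclei of 1 stratum still differ in depth, and the part of this in the ratios was not tested. After thinning to 1000 UMIs, 16 of 43 pairs in dopamine-gene neurons changed sides of 1, as did 11 of 44 over all dopamine-gene nuclei. Both are set against the unthinned ratios over all dopamine-gene nuclei.

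*Slc26a7* was found with *Wnt2* and *Ebf3* more often than independence gives. *Wnt2* and *Slc26a7* shared 85 dopamine-gene neurons against 48.8 expected, a ratio of 1.74 that was above 1 in 4 of 5 rats and ranged from 0.699 to 2.20. *Ebf3* and *Slc26a7* shared 125 against 80.1 (1.56, range 1.35 to 2.28), and *Ebf3* and *Wnt2* shared 281 against 214 (1.31, range 1.14 to 1.46), both above 1 in 5 of 5 rats. *Npsr1* and *Slc26a7* shared 22 against 16.4 (1.34, range 0.813 to 2.18, above 1 in 3 of 5), and *Calb1* and *Slc26a7* shared 71 against 53.3 (1.33, range 0.486 to 1.41, above 1 in 4 of 5). After thinning to 1000 UMIs, *Slc26a7* shared 13 neurons with *Wnt2* against 3.15 expected, 21 with *Ebf3* against 7.97 and 5 with *Npsr1* against 2.66, but 1 with *Calb1* against 2.6, so that the direction of the last pair turned on very few nuclei. *Npsr1* and *Col24a1* shared 51 against 38.9 (1.31, range 0.99 to 2.0). *Sv2c* and *Shroom3* shared 530 against 449 (1.18, range 1.07 to 1.32), and *Satb1* and *Shroom3* 353 against 299 (1.18, range 1.0 to 1.27). Both were above 1 in 5 of 5 rats, though rat 1 held only 3 nuclei with the latter pair.

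*Slc26a7* was found apart from *Satb1* and *Sv2c*. It shared 32 dopamine-gene neurons with *Satb1* against 67.9 expected, a ratio of 0.471 that ranged from 0.391 to 0.622 over the rats and was below 1 in all 5. With *Sv2c* it shared 76 against 106 (0.714, range 0.575 to 0.750), below 1 in all 5 rats. *Aldh1a1* and *Npsr1* shared 30 against 49.2 (0.610, range 0.244 to 1.20), with 1 rat above 1. In all dopamine-gene nuclei the ratios of these 3 pairs were 0.519 (range 0.445 to 0.648), 0.765 (0.577 to 0.929) and 0.642 (0.249 to 1.39).

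*Aldh1a1* and *Calb1*, which are known for marking different tiers, were found together about as often as independence gives. They shared 182 dopamine-gene neurons against 177 expected, a ratio of 1.03 with a range of 0.902 to 1.33 over the rats, above 1 in 2 of 5. In all dopamine-gene nuclei they shared 358 against 335 (1.07). After thinning to 1000 UMIs, 8 dopamine-gene neurons held both against 13.4 expected (a ratio of 0.596, above 1 in 1 of 4 rats, with a range of 0.353 to 1.65).

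**Figure D4:**
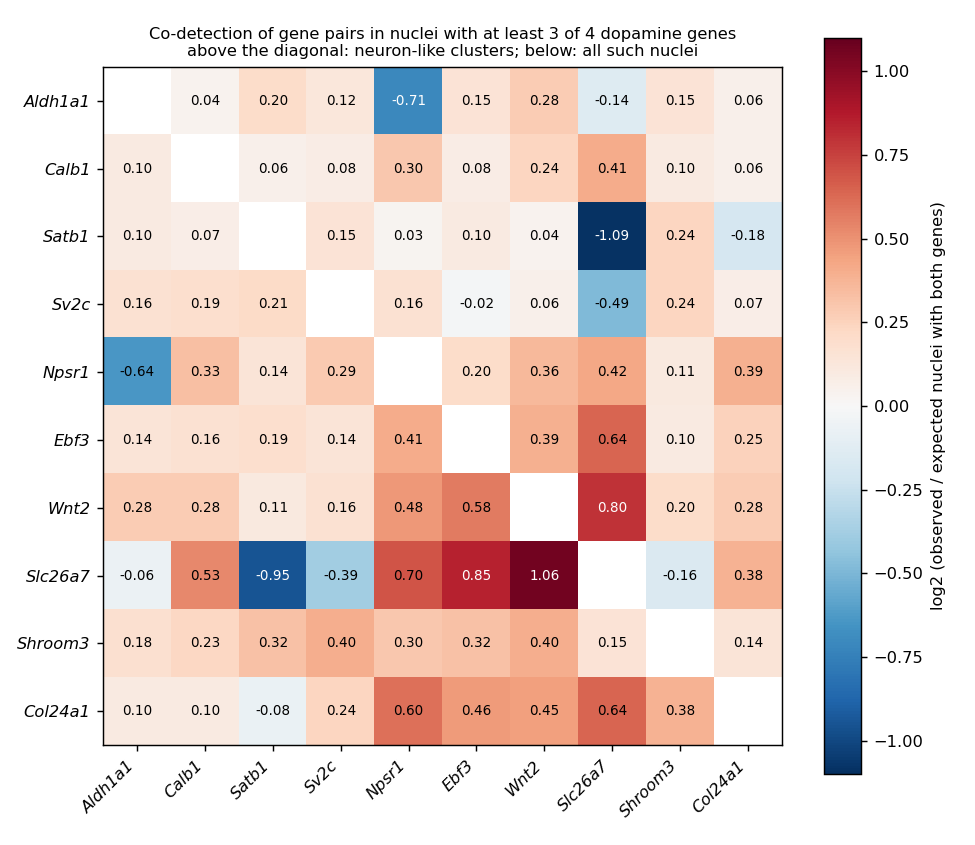
Heat map of the log2 ratio of observed to expected nuclei with both genes for the 45 pairs of members. Cells above the diagonal are dopamine-gene neurons and cells below it all dopamine-gene nuclei. *Slc26a7* is below 0 with *Satb1* and *Sv2c* and above 0 with *Wnt2* and *Ebf3* on both sides, and *Aldh1a1* with *Calb1* is near 0 (ratios 1.03 and 1.07).

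Levels of genes of dopamine handling and of other transmitters differed between dopamine-gene neurons with and without some members. Detection of *Th* and *Slc6a3* helped to choose these nuclei, so their levels are only a description. Of the dopamine-gene neurons, 404 (29.0%) lay outside dopaminergic-like sub-clusters, and their part in these differences was not tested. Dopamine-gene neurons with *Slc26a7* held *Crhbp* at 10.7 times and *Gad2*, an enzyme of GABA synthesis, at 5.45 times the level of those without it, higher in 4 of 4 rats. *Tacr3*, the neurokinin B receptor, stood at 0.202 times and *Th* at 0.643 times, lower in 4 of 4. Neurons with *Wnt2* held *Crhbp* at 8.87 times and *Gad2* at 2.18 times the level of those without, higher in 5 of 5 rats, and those with *Ebf3* held *Crhbp* at 6.80 times, higher in 4 of 4. Neurons with *Sv2c* went the other way, with *Slc6a3* at 2.42 times and *Tacr3* at 4.07 times, higher in 5 of 5 rats, and *Gad2* at 0.311 times and *Slc17a6* at 0.351 times, lower in 5 of 5. Neurons with *Shroom3* held *Slc6a3* at 2.0 times and *Gad2* at 0.355 times the level of those without, in the same direction in 5 of 5 rats.

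To name genes whose pattern was most like each member, log counts per nucleus were correlated within each rat and the coefficients averaged, over 1368 dopamine-gene neurons of 4 rats and 10643 genes. The values describe nuclei that share a library and a depth, and they were low throughout. Closest to *Aldh1a1* were *Raver2* (mean r = 0.456), an RNA-binding protein, and *Plod2* (0.435), a lysyl hydroxylase. Closest to *Slc26a7* were *Ntng1* (0.448), a netrin-related adhesion molecule, and *Gad2* (0.447), and closest to *Sv2c* was *Cadps2* (0.438), a protein of dense-core vesicle release. *Col24a1* stood nearest to *Bcl11a* (0.333), *Ebf3* to *Pld5* (0.324) and its relative *Ebf2* (0.320), *Satb1* to *Rcan2* (0.307), *Shroom3* to *Cadps2* (0.292) and *Wnt2* to *Antxr2* (0.246). For *Calb1* and *Npsr1* the highest values were 0.220 with *Phlda1* and 0.205 with *Bmper*.

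The question of which other genes divide dopamine neurons along with *Aldh1a1* and *Calb1* was put by comparing nuclei that held 1 of the 2 transcripts and not the other. Of all dopamine-gene nuclei, 970 held only *Aldh1a1* (28.4%), 481 only *Calb1* (14.1%), 358 both (10.5%) and 1607 neither (47.0%). In dopamine-gene neurons these were 356, 265, 182 and 589. The UMIs of each gene were summed per rat and group, and edgeR (quasi-likelihood test) was fitted to the sums with the rat as a block and Benjamini-Hochberg adjustment over all genes. Detection of the 2 genes in the same nuclei set the groups, so neither gene is a result of the comparison.

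The *Calb1*-only nuclei were deeper. Their median UMI total was 6354 on average over rats, against 4552 in *Aldh1a1*-only nuclei, and the difference (*Aldh1a1*-only minus *Calb1*-only) was -1801.7 ± 1240 (SD, n = 5), lower in 5 of 5 rats (exact permutation of signs, two-sided p = 0.062, and 5 rats allow none smaller). In dopamine-gene neurons it was -1510.2 ± 925 (n = 4 rats with at least 10 nuclei in both groups, exact permutation p = 0.125, again the smallest possible). Detection set these groups and depends on depth, and *Calb1* was the rarer transcript (0.742 against 1.73 UMIs per 10000 in dopamine-gene neurons). These p-values therefore cannot tell a difference between cells from one made by the grouping, and the depths are a description. Of the *Aldh1a1*-only nuclei 36.7% and of the *Calb1*-only nuclei 55.1% lay in neuron-like clusters.

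Over all dopamine-gene nuclei, 91 of 8470 genes outside the list passed an adjusted p of 0.05. Of the genes tested, 0.319% (27) were higher in *Aldh1a1*-only and 0.756% (64) in *Calb1*-only nuclei. In dopamine-gene neurons of rats 2 to 5, 306 of 7951 genes passed, 1.74% (138) higher in *Aldh1a1*-only and 2.11% (168) in *Calb1*-only neurons. The 2 sets shared 75 genes, 82.4% of the former and 24.5% of the latter, all with the same sign. Without 1 rat the count over all dopamine-gene nuclei ranged from 8 (without rat 5) to 454 (without rat 1), with 22, 32 and 45 without rats 2, 3 and 4, whereas in dopamine-gene neurons it was 281, 200, 254 and 171 without rats 2, 3, 4 and 5. At matched UMI totals 33 genes passed over all dopamine-gene nuclei and 260 in dopamine-gene neurons, and without the block none and 3 passed (145 and 210 with an unadjusted p under 0.05).

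In dopamine-gene neurons, the genes highest in *Aldh1a1*-only neurons included enzymes, a channel and transcription factors. *Raver2* stood at 186, 254, 339 and 290 UMIs per 1000000 UMIs (CPM) in *Aldh1a1*-only neurons of rats 2 to 5, and at 37.5, 38.4, 58.9 and 48.1 in *Calb1*-only neurons, a log2 difference of 2.47 ± 0.154 (SE, edgeR adjusted p = 9.35e-16). The groups did not overlap. *Plod2* followed with 2.04 ± 0.173, *Plcg2*, a phospholipase C, with 2.71 ± 0.390, and *Trpc4*, a cation channel, with 1.66 ± 0.185. *Ebf1*, a relative of *Ebf3*, rose by 1.49 ± 0.138 (401, 615, 726 and 719 CPM against 223, 86.5, 229 and 207, adjusted p = 1.30e-10). *Neurod6*, a bHLH factor known in VTA dopamine neurons, rose by 1.41 ± 0.279 (adjusted p = 0.000614). The remaining 6 genes named by the rule were *Rai14*, *Micalcl*, *Scube1*, *Rreb1*, *Sema6a* and *Kcnj5*, with log2 differences of 1.39 to 1.90. In rat 3 *Scube1* stood at 9.76 against 9.61 CPM, so its direction in that rat rested on nearly equal values.

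The genes highest in *Calb1*-only neurons were led by a chloride channel and a phosphodiesterase. *Ano2*, a calcium-activated chloride channel, stood at 52.9, 28.8, 40.3 and 74.0 CPM in *Calb1*-only neurons and at 6.88, 0, 0 and 5.24 in *Aldh1a1*-only neurons of rats 2 to 5 (log2 difference -3.47 ± 0.369, adjusted p = 4.29e-09). *Pde11a*, which breaks down cyclic nucleotides, stood at 243, 183, 236 and 254 against 48.8, 9.76, 32.0 and 24.4 (-2.73 ± 0.174, adjusted p = 1.72e-15). Neither gene overlapped between the groups. *Calcr*, the calcitonin receptor, differed by -2.02 ± 0.307, *Ano3* by -1.78 ± 0.181, the receptor kinase gene *Alk* by -1.69 ± 0.175 and *Ntng1* by -1.49 ± 0.134. The remaining 6 were *AABR07049085.1*, *Slc24a4*, *Lypd1*, *Shisa6*, *Spag16* and *Phlda1*, from -1.81 to -1.45. Among these 12, *Pde11a*, *AABR07049085.1*, *Ano3*, *Lypd1*, *Alk*, *Shisa6*, *Ntng1*, *Spag16* and *Phlda1* also passed over all dopamine-gene nuclei, and *Ano2*, *Calcr* and *Slc24a4* were not tested there.

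**Figure D5:**
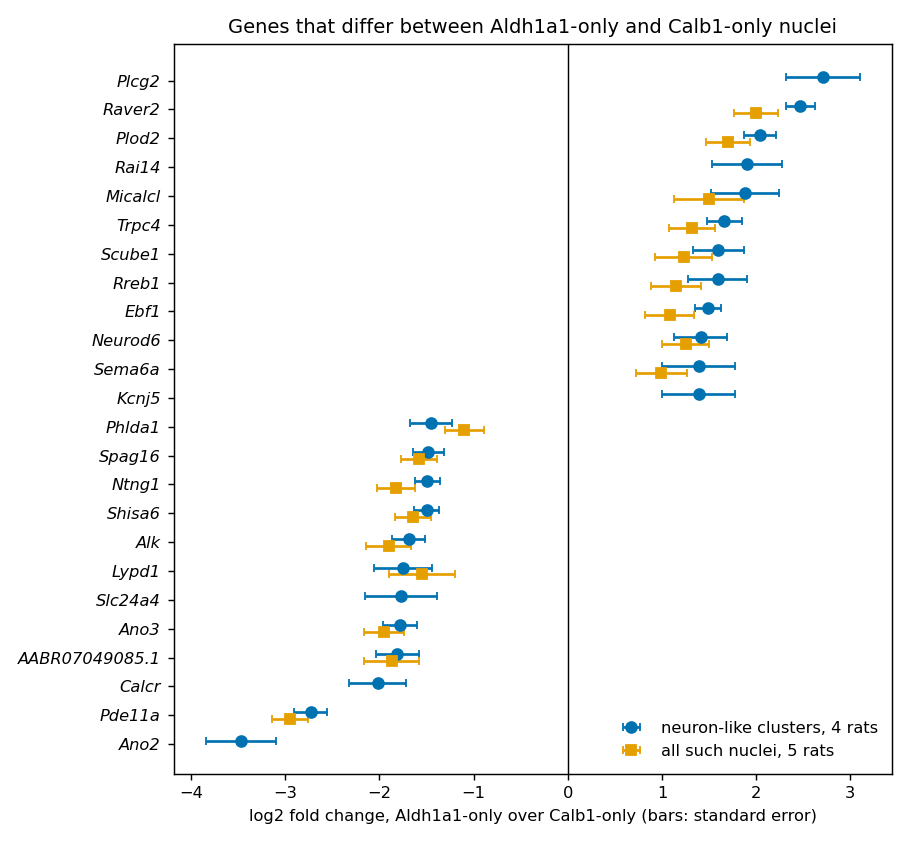
Log2 difference (*Aldh1a1*-only minus *Calb1*-only, with its standard error) of the 24 genes named in dopamine-gene neurons (4 rats) and, where tested, over all dopamine-gene nuclei (5 rats). Points keep their side of 0 in both fits, from *Plcg2* at 2.71 to *Ano2* at -3.47 in dopamine-gene neurons.

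Over all dopamine-gene nuclei, *Raver2* (2.0), *Plod2* (1.7) and *Trpc4* (1.32) also passed as higher in *Aldh1a1*-only nuclei, each in 4 of 5 rats, whereas *Ebf1*, *Micalcl*, *Scube1*, *Rreb1* and *Sema6a* did not (edgeR adjusted p = 0.0709, 0.0782, 0.0719, 0.0535 and 0.104) and *Plcg2*, *Rai14* and *Kcnj5* were not tested. Higher in 5 of 5 rats there were, beside *Neurod6* (1.25 ± 0.249), *Ntn4* (1.04 ± 0.205) and *Hcrtr2* (0.92 ± 0.194), the oligodendrocyte genes *Ermn* (1.02 ± 0.218) and *Ugt8* (0.97 ± 0.214), and *Ptgds* (0.92 ± 0.174). *Ermn*, *Ugt8* and *Ptgds* had log2 differences of 0.50, 0.07 and 0.49 in dopamine-gene neurons and did not pass there (edgeR adjusted p = 0.211, 0.975 and 0.060). The summed level of 8 oligodendrocyte markers was 31.4 to 165 UMIs per 10000 in *Aldh1a1*-only and 17.0 to 77.0 in *Calb1*-only nuclei, higher in the former in 4 of 5 rats, with none of the 8 at 0. Of these markers 1 of 8 passed, *Mag* (0.68 ± 0.150), with 2 past the threshold of DESeq2 and all 8 at an unadjusted p under 0.05, and their median log2 difference was 0.72 against 0.02 over all genes. The 7 astrocyte markers had a median of 0.78, with none past the threshold of edgeR (6 of 7 with an unadjusted p under 0.05, and 1 past the threshold of DESeq2), and summed to 4.20 to 15.3 against 1.36 to 14.1, higher in 4 of 5 rats. In dopamine-gene neurons the oligodendrocyte markers summed to 18.2 to 34.3 against 12.2 to 36.5, and none of the 8 passed in edgeR or DESeq2 (3 with an unadjusted p under 0.05). The part of glial RNA in the counts over all dopamine-gene nuclei was not tested.

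Lists of genes of the biology of these neurons were read in dopamine-gene neurons, with the background shares above. Of 12 tested genes known for nigral or ventral tier cells, 2 rose and 1 fell in *Aldh1a1*-only neurons: *Tmem132d* (1.03 ± 0.111) and *Lmo3* (1.24 ± 0.155) were higher, and *Cadps2* (-0.75 ± 0.0877) was lower. *Sox6* (0.21 ± 0.172), *Kcnj6* (-0.34 ± 0.126), *Drd2* (-0.24 ± 0.119) and *Slc10a4* (0.49 ± 0.299) did not pass, and the list's median was 0.11 against 0.01 over all genes. Of 12 genes known for tegmental or dorsal tier cells, *Neurod6* and *Cbln4* (1.17 ± 0.343) were higher and none was lower, whereas *Cck* (-0.47 ± 0.162), *Gad2* (-0.57 ± 0.176), *Calb2* (0.01 ± 0.155) and *Slc17a6* (0.16 ± 0.234) did not pass. The medians of these lists were 0.11 and 0.15. Over all dopamine-gene nuclei they were -0.01 and -0.04, *Cadps2* (-1.02) and *Neurod6* passed in edgeR, and *Tmem132d* (0.45), *Lmo3* (0.80) and *Cbln4* (0.77) did not (edgeR adjusted p = 0.553, 0.24 and 0.244). DESeq2 called no tegmental or dorsal tier gene there, *Neurod6* included.

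Of 14 transcription factors of dopamine neurons, *Ebf1* and *Tcf4* (0.65 ± 0.105) were higher in *Aldh1a1*-only neurons, and *Pbx3* (-0.65 ± 0.102), *Lmx1a* (-0.73 ± 0.129) and *Ebf2* (-0.76 ± 0.181) were lower. *Ebf1* and *Ebf2* thus went opposite ways, and *Ebf3* stood at 2.31, 0.781, 3.46 and 2.53 UMIs per 10000 in *Aldh1a1*-only against 2.35, 0.577, 3.84 and 2.46 in *Calb1*-only neurons of rats 2 to 5. Among 20 genes of calcium handling, *Slc8a1* (-0.83 ± 0.0915), the sodium-calcium exchanger, *Itpr1* (-0.62 ± 0.115), a calcium release channel, and *Vsnl1* (-0.38 ± 0.10) were lower. Of 18 synaptic vesicle genes, *Rab3b* (1.07 ± 0.223) and *Syt4* (0.48 ± 0.142) were higher and *Rab3c* (-0.49 ± 0.128) was lower. DESeq2 did not call *Ebf2*, *Vsnl1*, *Syt4*, *Rab3c* or *Cbln4* (adjusted p = 0.227, 0.182, 0.374, 0.182 and 0.169). Over all dopamine-gene nuclei, *Lmx1a*, *Slc8a1* and *Itpr1* passed, *Ebf1*, *Tcf4*, *Pbx3* and *Ebf2* did not (edgeR adjusted p = 0.0709, 0.0762, 0.121 and 0.0661), though DESeq2 called *Ebf1*, *Tcf4* and *Ebf2* (adjusted p = 0.0406, 0.00052 and 0.0432), and none of 19 synaptic vesicle genes passed in edgeR or DESeq2 (5 with an unadjusted p under 0.05). In dopamine-gene neurons, none of 4 retinoid and aldehyde genes and none of 5 Wnt genes that could be tested passed in edgeR or DESeq2, and none had an unadjusted p under 0.05. The same lists had none of 6 and none of 8 past either threshold over all dopamine-gene nuclei (1 and 2 with an unadjusted p under 0.05).

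Markers of the other cell types were read in the same way. In dopamine-gene neurons none of 8 neuron, 5 dopaminergic, 3 GABA and 1 glutamate markers passed in edgeR or DESeq2 (2, 0, 1 and 0 with an unadjusted p under 0.05), with *Th*, *Slc6a3*, *Slc18a2* and *Ddc* left out of the counts because their detection chose the nuclei. *Th* itself stood higher in *Aldh1a1*-only neurons in 4 of 4 rats (log2 difference 0.43 ± 0.102), and *Slc6a3*, *Slc18a2* and *Ddc* differed by 0.00 ± 0.0992, -0.18 ± 0.115 and -0.14 ± 0.0881. None of the 6 astrocyte markers passed in edgeR or DESeq2 (4 with an unadjusted p under 0.05), but their median log2 difference was 0.55 against 0.01 over all genes, and their sum was 2.30 to 4.64 UMIs per 10000 in *Aldh1a1*-only and 1.04 to 4.32 in *Calb1*-only neurons, higher in 3 of 4 rats. The median of the 8 oligodendrocyte markers was 0.32. Of 2 OPC markers, *Tnr* (0.60) passed in edgeR, higher in *Aldh1a1*-only neurons of 3 of 4 rats, but not in DESeq2 (adjusted p = 0.374), and no microglial or vascular marker was tested. Over all dopamine-gene nuclei none of 8 neuron, 6 dopaminergic, 3 GABA, 1 glutamate, 4 OPC, 1 microglial and 1 vascular markers passed in edgeR or DESeq2 (2, 1, 1, 0, 1, 0 and 1 with an unadjusted p under 0.05).

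The other 8 members are described in the same groups without a test. In *Calb1*-only neurons of rats 2 to 5 *Npsr1* stood at 1.05, 0.961, 1.81 and 0.944 UMIs per 10000, and in *Aldh1a1*-only neurons at 0.144, 0, 0.169 and 0.384, without overlap. *Slc26a7* stood at 0.644, 0.0961, 1.16 and 0.963 against 0.385, 0.293, 0.132 and 0.332, higher in *Calb1*-only neurons in all but rat 3. *Col24a1* was higher in *Calb1*-only neurons of all 4 rats (1.38, 1.06, 2.28 and 2.46 against 0.997, 0.488, 1.88 and 1.82), and *Satb1* in *Aldh1a1*-only neurons of all 4 (1.37, 8.88, 1.43 and 1.13 against 1.17, 5.29, 0.930 and 0.907). *Shroom3* was also higher in *Aldh1a1*-only neurons of all 4 rats (1.79, 3.61, 1.73 and 1.54 against 1.60, 2.21, 1.67 and 1.52), and *Wnt2* in *Calb1*-only neurons of all 4 (0.692, 1.15, 0.806 and 0.870 against 0.653, 0.976, 0.715 and 0.698), by small amounts in most rats. *Sv2c* stood at 7.95, 10.6, 6.59 and 7.26 in *Aldh1a1*-only and at 8.91, 10.1, 7.04 and 7.89 in *Calb1*-only neurons, higher in the latter in all but rat 3.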

How the data were processed

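Nuclei of the VTA of 5 rats were captured and sequenced with the v3.1 chemistry of 10x Genomics, which counts the 3′ ends of transcripts. The authors deposited whole-number UMI counts per gene and barcode, made with Cell Ranger 8.0.1 per the processing notes of the submitters, with every barcode kept and before removal of free RNA, normalization, integration or removal of doublets. The genome build and annotation of the counts are not given in the sources used here. Gene names of the files were used, paired with their Ensembl identifiers.

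Barcodes were filtered as stated in the report. Clusters came from 2000 variable genes other than the members, 20 principal components, 20 neighbours and Leiden clustering at resolution 1.0 (scanpy 1.11.5, leidenalg 0.10.2, Python 3.11.15), without integration, and were named "-like" from marker lists, or left unnamed where markers of 2 types were mixed or leading genes went against the name. Some names rest on a scoring rule set after the data were seen. Scrublet called 14 doublets at its own threshold, which was not used; the 5% of barcodes with the highest scores per library were left out as an alternative. A gene was detected at 1 UMI. Expected co-detection was summed over 4 strata of the UMI total in each rat.

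UMI counts summed per rat and group were tested with edgeR 4.0.16 (R 4.3.3, TMM, filterByExpr, quasi-likelihood test, rat as a block, Benjamini-Hochberg adjusted p under 0.05), with DESeq2 1.42.0 as an alternative. Groups of the same rat are pairs because they come from the same animal. As a check, the deviations of both sums of a rat from the mean of their group were correlated over genes, at 0.485 to 0.704 over all dopamine-gene nuclei and at 0.463 to 0.660 in dopamine-gene neurons. Rats gave sums with at least 10 nuclei in both groups. The code was tested on simulated data with known folds. Named genes are the members, up to 12 others in each direction with the largest change among those past the threshold, with a mean of at least 4 log2 CPM and the same direction in every rat, and listed genes past the threshold with up to 4 that were not. The members, the gene lists and the rule for them were chosen with earlier results of these data known. Shares and levels are given as a mean and SD over rats. Nothing states that the libraries are of separate days or batches. Some genes that the rule names are not reported here.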

Additional observations from a re-analysis of the deposited data

Results flagged for a closer look

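Levels of the 10 members were compared among the 5 rats in 5 groups of barcodes, and in 8 of 50 comparisons 1 rat lay apart from the others by the gap test of Dixon (gap over range above 0.71), which chance alone flags in about 1 of 20 groups. The 50 comparisons are not independent, because groups share nuclei. In rat 3, 209 of the 212 dopamine-gene nuclei were also dopamine-gene neurons. All values are UMIs per 10000. Rat 3 accounted for 6 of the 8. Its *Satb1* was 7.22 in all dopamine-gene nuclei (0.519 to 1.02 in the other rats), 7.25 in dopamine-gene neurons (0.574 to 1.12), 2.70 in other neurons (0.357 to 0.675) and 1.26 in barcodes with under 100 UMIs (0.244 to 0.402). Its *Shroom3* was 2.27 in dopamine-gene neurons (1.40 to 1.55) and its *Sv2c* 3.13 in other neurons (1.03 to 1.57). The dopamine-gene neurons of rat 3 were the shallowest of the 5 rats, with a median of 2480 UMIs where the rest had 8218.5 to 10640.5.

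The *Npsr1* level of rat 4 was 1.2 in all dopamine-gene nuclei, against 0.306 to 0.531 in the other rats. The *Slc26a7* level of rat 1 was 3.28 in dopamine-gene neurons, against 0.317 to 0.787, and rested on 24 nuclei.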

How the results depend on the processing

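The count of 91 genes between *Aldh1a1*-only and *Calb1*-only nuclei depended on which nuclei entered. It stayed within 1.5 times with 2000 UMIs, all 4 or at least 2 dopamine genes, other size factors or DESeq2, and was 533 with no maximum of genes, 437 with no filter on low counts, 141 at 2 UMIs, 44 without likely doublets, 33 at matched UMI totals, and 306 in neuron-like clusters. Leaving out each rat gave 8 to 454, and 281, 200, 254 and 171 in neuron-like clusters without rats 2 to 5. Chosen after the data were seen were these last 4 and the counts in neuron-like clusters at matched UMI totals (260), with DESeq2 (116), and in dopaminergic-like sub-clusters (401), as were all other values in sub-clusters and those in neuron-like clusters with a further change. The replicate block mattered: with no replicate block edgeR called 0 (145 with an unadjusted p under 0.05) and 3 in neuron-like clusters. Higher in *Aldh1a1*-only were 29.7% of calls, 45.1% in neuron-like clusters, 55.9% with no maximum of genes, 55.4% without the filter, 57.3% without rat 1, 15.2% at matched totals and 6.25% without rat 3. Their causes were not tested.

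The mean difference of UMI totals kept its direction under all alternatives, though 1 of 5 rats went the other way with at least 2000 UMIs. Every alternative set the groups by detection, so this cannot tell a difference between cells from one made by the grouping. The mean difference was -3846.2 with no maximum of genes, against -1801.7. It ran from -2165.5 to -1399.6 without 1 rat and from -1898.2 to -1150.7 in neuron-like clusters. The log2 co-detection ratio of *Aldh1a1* and *Calb1* (0.10) was 0.07 to 0.11 without 1 rat, -0.03 to 0.07 in neuron-like clusters without 1 rat, and -0.75 there after thinning to 1000 UMIs.

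Of 987 alternative values of pairs of members 83 changed sign, 16 of 43 in neuron-like clusters and 11 of 44 over all dopamine-gene nuclei after thinning, and 15 of 45 in sub-clusters, with ratios of 0.385 for *Calb1* and *Slc26a7* and 0.203 for *Slc26a7* and *Shroom3* in thinned neuron-like nuclei. Of pairs off a ratio of 1 by more than the SD over rats, 10 values did (log2 ratios): *Calb1* with *Sv2c* (-0.06), *Satb1* with *Ebf3* (-0.05) and *Npsr1* with *Wnt2* (-0.12) in thinned neuron-like nuclei; *Satb1* with *Ebf3* (-0.05), *Sv2c* with *Col24a1* (-0.04), *Npsr1* with *Shroom3* (-0.04) and *Shroom3* with *Col24a1* (-0.02) in sub-clusters; *Sv2c* with *Slc26a7* (0.03) without depth strata; and *Npsr1* with *Shroom3* with all 4 genes (-0.01) and in neuron-like clusters without rat 2 (0.0). Others moved by more than the SD over rats in 105 values, as did 52 of 190 shares and 22 of 180 level ratios. Of 1214 fold changes of named genes 285 lost and 147 gained significance, and 3 changed sign: *Ugt8* in neuron-like clusters without rat 4 (-0.06) and rat 5 (-0.05), and *Mag* there at matched totals (-0.01).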
